A study of Oryctolagus cuniculus with 16 samples.

Results

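The genes described here encode the NADPH oxidase of phagocytes and its relative NOX4, measured by total RNA-seq in the femoral head of rabbits with a surgical model of Perthes disease. They were taken by gene symbol from a list of 6 (CYBA, CYBB, NCF1, NCF4, RAC2 and NOX4). Of these, 5 were found among the 20255 genes of the table, and CYBA was not analysed here. The Perthes group held 5 immature rabbits, recorded under genotype as Perthes' disease, in which the femoral neck had been tied with suture and the ligamentum teres cut. The control group held 3 rabbits recorded as wild type (WT). A sham operation, the sex of the rabbits and the interval between surgery and sampling were not given in the sources used here. The tissue was the whole femoral head, so each library mixed bone, cartilage, marrow and any invading cells, and in such bulk samples fewer cells of a type and less RNA per cell cannot be told apart.

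The phagocyte NADPH oxidase is the enzyme with which neutrophils and macrophages make superoxide. Its catalytic subunit gp91phox (NOX2, gene CYBB) sits in the membrane with p22phox (CYBA), and becomes active when cytosolic subunits, among them p47phox (NCF1) and p40phox (NCF4), and the GTPase RAC2 join it. Inherited loss of a subunit causes chronic granulomatous disease, in which phagocytes engulf microbes but kill them poorly. NOX4 is a related enzyme of mesenchymal, endothelial and kidney cells that needs p22phox but none of the cytosolic subunits, and releases mainly hydrogen peroxide.

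The 8 libraries held 26757077 to 29461483 counts, with 27331741 to 29461483 in the Perthes and 26757077 to 28783093 in the control libraries. Levels are given as CPM, the counts of a gene relative to its library total after scaling between libraries, with 1 count worth 0.0333 to 0.0374 CPM. The test across genes was edgeR's quasi-likelihood test, with p-values adjusted by the Benjamini-Hochberg method over the 15305 genes that passed a filter on low counts, and a gene was called at an adjusted p below 0.05. By this rule 15.1% of all genes tested were called, 6.21% higher and 8.86% lower in Perthes, and the median log2 fold change over all genes was 0.03. The CPM values of the 5 Perthes and 3 control rabbits did not overlap for 25.2% of the genes tested. These calls rest on few controls. Without control rabbit 2, edgeR called 0 genes higher and 0 lower (1624 and 2098 at an unadjusted p below 0.05), and without control rabbit 1 it called 73 higher and 184 lower. An exact two-sided permutation test over the 56 divisions of the rabbits could not give a p under 0.0357.

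The oxidase genes did not all change in the same direction. NCF1 and RAC2 were lower in Perthes, by 4.20-fold and 2.52-fold of the mean CPM, and NOX4 was higher, by 20.5-fold. CYBB, the catalytic subunit, and NCF4 were not called. In all, 3 of the 5 genes were called, against 15.1% of all genes, and the same 3 had groups that did not overlap, against 25.2%. NOX4 entered this count through its Perthes values alone, since with its few control counts it passed the filter only where it was high, and with at least 10 counts required in every sample it was removed and 2 genes were called. None of the 3 calls held when control rabbit 1 or control rabbit 2 was left out (0 of 5 called by edgeR in each case, 3 at an unadjusted p below 0.05). All 9 neutrophil markers tested were lower in every Perthes rabbit than in every control, the smooth muscle and fibroblast markers ACTA2, TAGLN and COL3A1 were higher, and the part of these cells in the changes was not tested. The values of each rabbit are shown in the plot of CPM by gene.

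**Figure D1:**
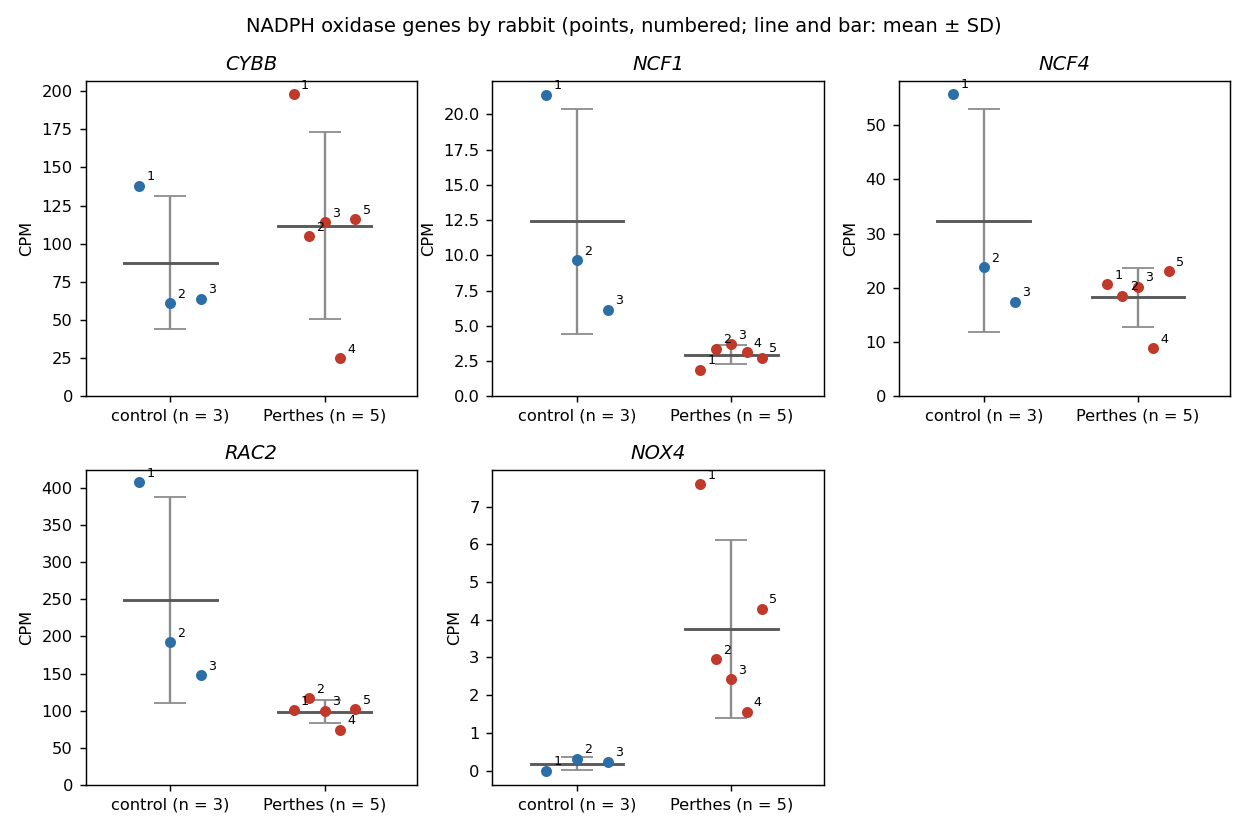
CPM (linear axis) of 5 oxidase genes in each rabbit, with rabbits numbered within their group, controls in blue and Perthes in red, and the line and bar giving the mean ± SD. All 5 Perthes points lie below the controls for NCF1 and RAC2 and above them for NOX4, while the groups overlap for CYBB and NCF4, and control rabbit 1 is the highest control in each panel other than NOX4.

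CYBB (gene 100008801), which encodes the electron-carrying core of the enzyme, was at 198.0, 105.0, 114.2, 25.07 and 116.0 CPM in Perthes rabbits 1 to 5. The controls were at 137.9, 61.11 and 63.82 CPM. Perthes rabbit 1 lay above every control and Perthes rabbit 4 below every control, so the groups overlapped at both ends. The means were 111.6 ± 61.3 CPM (SD, n = 5) and 87.6 ± 43.6 CPM (SD, n = 3). CYBB differed by 0.35 on the log2 scale (SE 0.55, 95% interval -0.89 to 1.58, edgeR adjusted p = 0.69), and the exact permutation test gave p = 0.786. The interval includes falls as well as rises. CYBC1, which encodes a chaperone needed for gp91phox to mature and was found under another symbol by its gene number, was at 39.6 ± 7.19 CPM in Perthes and 34.5 ± 12.4 CPM in control (log2 fold change 0.20, SE 0.24, edgeR adjusted p = 0.602).

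NCF1 (gene 100008803) encodes the organizer that carries the cytosolic complex to the membrane once it is phosphorylated. It was at 1.89, 3.37, 3.67, 3.13 and 2.72 CPM in Perthes rabbits 1 to 5, from 56 to 100 counts a library. The controls were at 21.4, 9.66 and 6.15 CPM, from 599, 274 and 185 counts. Every Perthes rabbit was below every control. The Perthes values lay within a narrow band of 1.89 to 3.67 CPM, and the controls were spread, with 56.6% of the control counts in control rabbit 1. The means were 2.96 ± 0.69 CPM (SD, n = 5) and 12.4 ± 7.99 CPM (SD, n = 3). NCF1 fell by 2.07 on the log2 scale (SE 0.39, 95% interval -2.94 to -1.20, edgeR adjusted p = 0.0138), and the exact permutation p was 0.0357, the smallest the design allows. Near-identical pseudogenes of NCF1 are known in the human genome, and whether rabbit copies share its reads was not tested. Without control rabbit 1 the log2 fold change was -1.42 (edgeR adjusted p = 0.0521), and without control rabbit 2 it was -2.22 (edgeR adjusted p = 0.0519).

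NCF4 (gene 100009359), whose product binds the phagosome membrane lipid phosphatidylinositol 3-phosphate, was at 20.6, 18.5, 20.2, 8.88 and 23.0 CPM in Perthes rabbits 1 to 5. The controls were at 55.8, 23.8 and 17.4 CPM. Control rabbit 1 stood above all other rabbits, and control rabbit 3 lay below 4 of the 5 Perthes rabbits. The means were 18.2 ± 5.47 CPM (SD, n = 5) and 32.3 ± 20.6 CPM (SD, n = 3). NCF4 differed by -0.83 on the log2 scale (SE 0.40, 95% interval -1.73 to 0.08, edgeR adjusted p = 0.191), and the exact permutation p was 0.321. Domain annotation in the gene table gave NCF1 and NCF4 4 entries in common of 9 each.

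RAC2 (gene 100356520), the GTPase of blood cells that joins the cytosolic subunits, was at 100.7, 117.0, 100.2, 74.4 and 101.8 CPM in Perthes rabbits 1 to 5. The controls were at 407.9, 192.2 and 148.0 CPM. Every Perthes rabbit was below the lowest control, and control rabbit 1 again held more than the other controls together, with 53.6% of the control counts. The means were 98.8 ± 15.4 CPM (SD, n = 5) and 249.4 ± 139.1 CPM (SD, n = 3). RAC2 fell by 1.34 on the log2 scale (SE 0.31, 95% interval -2.03 to -0.64, edgeR adjusted p = 0.0236), with an exact permutation p of 0.0357. The call was lost without control rabbit 1 (log2 fold change -0.78, edgeR adjusted p = 0.073) and without control rabbit 2 (-1.49, edgeR adjusted p = 0.0594). It was also lost without Perthes rabbit 3 (-1.34, edgeR adjusted p = 0.0575) or Perthes rabbit 5 (-1.34, edgeR adjusted p = 0.0587).

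RAC1, the GTPase found in nearly every cell type, was at 126.2 to 164.3 CPM in Perthes and 126.5 to 141.4 CPM in control rabbits. Its groups overlapped, and its log2 fold change was 0.12 (SE 0.15, 95% interval -0.22 to 0.47, edgeR adjusted p = 0.609).

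NOX4 (gene 100339697) moved the other way. It was at 7.60, 2.96, 2.42, 1.56 and 4.29 CPM in Perthes rabbits 1 to 5, from 225, 79, 66, 43 and 126 counts. Control rabbit 1 had 0 counts, which allows a level of up to 0.107 CPM, and control rabbits 2 and 3 had 9 and 7 counts (0.317 and 0.233 CPM). Every Perthes rabbit was above every control, with 41.7% of the Perthes group's counts in rabbit 1. The means were 3.77 ± 2.36 CPM (SD, n = 5) and 0.183 ± 0.164 CPM (SD, n = 3). NOX4 rose by 4.32 on the log2 scale (SE 0.86, 95% interval 2.38 to 6.27, edgeR adjusted p = 0.0159), with an exact permutation p of 0.0357. The control level rests on these few counts and NOX4 passed the filter on low counts only through the Perthes libraries, so the size of the fold is less certain than its direction. Without control rabbit 1 the log2 fold change was 3.76 (edgeR adjusted p = 0.0514), and without control rabbit 2 it was 4.94 (edgeR adjusted p = 0.0563).

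CYBB and NOX4 carry the same 7 domain entries in the gene table, and the 95% intervals of their log2 fold changes did not overlap, though the difference itself was not tested. Among the other NOX and DUOX genes, NOX5 (log2 fold change 0.95, edgeR adjusted p = 0.383), DUOX1 (1.13, edgeR adjusted p = 0.324) and its maturation factor DUOXA1 (1.35, edgeR adjusted p = 0.211) were not called. Of the list of 11 further NOX and assembly genes, 5 were tested, including CYBC1 and RAC1, and edgeR called 0 of them (0 at an unadjusted p below 0.05, and 0 by DESeq2), with a median log2 fold change of 0.95. NOX1, NOX3, NOXA1 and NOXO1 were not analysed here, and DUOX2 and DUOXA2 fell below the filter.

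Ratios of 2 genes within a library do not depend on how libraries are scaled to each other, and 4 pairs were compared. RAC2 to RAC1 was the 1 pair of the 4 whose groups did not overlap. The log2 ratio of RAC2 to RAC1 counts was -0.65, -0.49, -0.43, -0.76 and -0.55 in Perthes rabbits 1 to 5, so it was negative in each. It was 1.69, 0.44 and 0.13 in the controls, and positive in each. Counts are not corrected for gene length, so only the change of a ratio between groups is read here. The difference was -1.33, or 2.51-fold (exact permutation p = 0.0357, adjusted p = 0.0952 over the 4 pairs), which did not pass after correction. Since 0.0357 is the smallest p the design allows, 1 pair that reaches it alone cannot pass this correction, and no conclusion is drawn from that. Control rabbit 1 set much of its size, since the difference without that rabbit was -0.86.

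NCF1 was also low relative to the other subunits in 4 of the 5 Perthes rabbits. The log2 ratio of NCF1 to NCF4 was -3.43, -2.45, -2.45, -1.50 and -3.07 in Perthes and -1.38, -1.30 and -1.50 in control rabbits. The 3 controls lay close together and Perthes rabbit 4 was among them. The difference of means was -1.19, or 2.28-fold (exact permutation p = 0.0714, adjusted p = 0.0952).

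Relative to CYBB, the log2 ratio of NCF1 was -6.70, -4.95, -4.95, -3.00 and -5.40 in Perthes and -2.69, -2.66 and -3.37 in control rabbits. Perthes rabbit 4, which had the lowest CYBB level, was again within the control range. The difference was -2.09, or 4.27-fold (exact permutation p = 0.0714, adjusted p = 0.0952). The log2 ratio of RAC2 to CYBB was -0.98, 0.16, -0.19, 1.57 and -0.19 in Perthes and 1.56, 1.65 and 1.21 in control rabbits, a difference of -1.40, or 2.64-fold (exact permutation p = 0.107, adjusted p = 0.107). In these 3 ratios 4 Perthes rabbits lay below all controls and rabbit 4 did not. None of the 3 passed the test, and with so few rabbits a pair with overlapping groups could not have passed it.

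**Figure D2:**
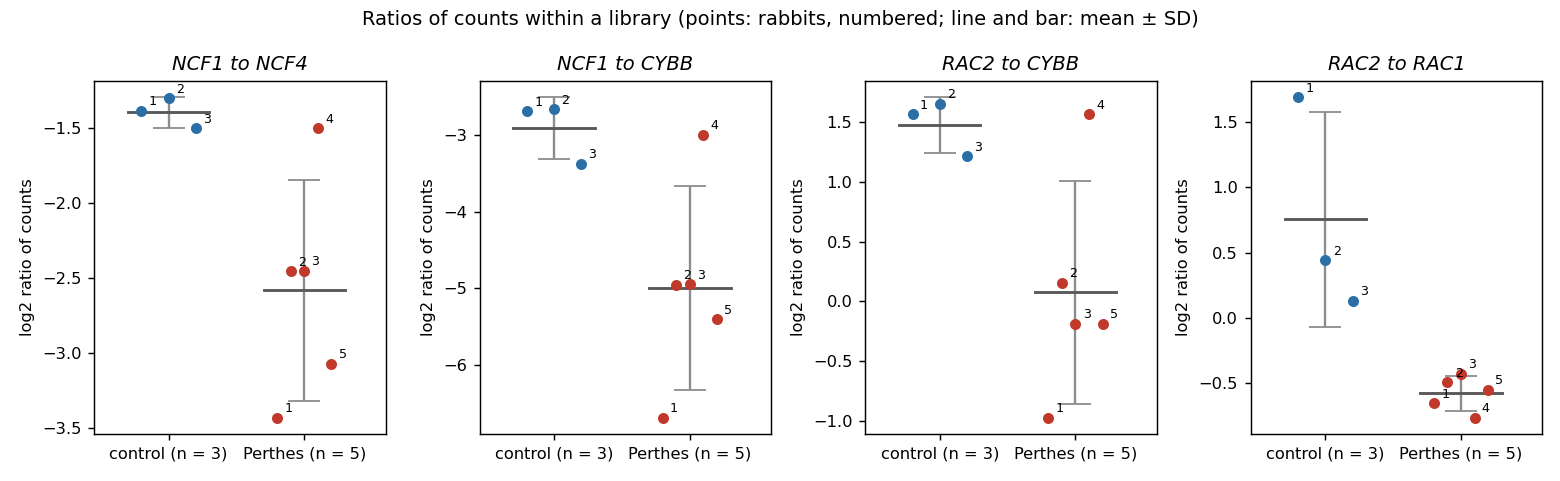
Log2 ratio of the counts of a pair of genes within each library (vertical axis, log2 units) for the 3 control (blue) and 5 Perthes (red) rabbits, numbered within their group, with mean ± SD. Perthes rabbit 4 sits at the control level for NCF1 to NCF4, NCF1 to CYBB and RAC2 to CYBB, and all 5 Perthes rabbits lie below the controls for RAC2 to RAC1.

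The next genes are those known to activate the oxidase. Of the 26 tested, 5 were lower (all genes tested: 8.86%) and 1 higher (all genes tested: 6.21%), and the median log2 fold change was -0.45 beside 0.03 for all genes. PRKCB, a protein kinase C that phosphorylates p47phox, fell from 69.0 ± 17.7 to 17.2 ± 7.87 CPM (log2 fold change -2.002, SE 0.33, edgeR adjusted p = 0.0128). FPR1, the receptor for bacterial formyl peptides on neutrophils, fell from 41.9 ± 29.7 to 4.66 ± 2.86 CPM (-3.17, SE 0.57, edgeR adjusted p = 0.0136). PIK3CG, the leukocyte PI3-kinase downstream of such receptors, fell from 73.6 ± 38.6 to 24.3 ± 4.55 CPM (-1.60, SE 0.30, edgeR adjusted p = 0.0139).

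ARHGDIB, the blood-cell inhibitor that holds RAC proteins in the cytosol, also fell, from 169.9 ± 39.4 to 61.3 ± 15.2 CPM (-1.47, SE 0.23, edgeR adjusted p = 0.0118). It is a partner of RAC2 and, unlike the kinases and receptors of the list, restrains RAC activity. PIK3CD was the fifth gene called lower. Without control rabbit 1 edgeR called 1 of the 26 lower and 0 higher (5 and 2 at an unadjusted p below 0.05). Without control rabbit 2 it called 0 lower and 0 higher (11 and 1 at an unadjusted p below 0.05). CLEC7A, the fungal beta-glucan receptor dectin-1 of macrophages, rose from 6.61 ± 3.76 to 36.6 ± 24.8 CPM (2.47, SE 0.67, edgeR adjusted p = 0.038), although its groups overlapped.

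Charge compensation genes let protons and other ions follow the electrons that the oxidase moves across the membrane. Of 4 tested, 1 was called lower (all genes tested: 8.86%). It was the chloride/proton exchanger CLCN3 (41.3 ± 6.20 against 73.7 ± 25.7 CPM, log2 fold change -0.83, SE 0.23, edgeR adjusted p = 0.0394). The voltage-gated proton channel HVCN1 was at 22.0 ± 6.72 CPM in Perthes and 27.0 ± 8.12 CPM in control (-0.29, SE 0.31, edgeR adjusted p = 0.542). The median of the 4 was -0.46.

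Among the 14 tested genes that remove or use superoxide and peroxide, 1 was called higher (all genes tested: 6.21%) and 2 lower (8.86%), by edgeR's calls shares near those of all genes. The median log2 fold change was -0.35. At an unadjusted edgeR p below 0.05, 3 of the 14 were higher and 7 lower, beside 2345 and 2538 of all 15305 genes. DESeq2 called 2 higher and 5 lower of 15. PRDX1, a cytosolic peroxidase, rose from 111.7 ± 8.27 to 312.0 ± 147.3 CPM (1.48, SE 0.38, edgeR adjusted p = 0.0326). SOD1, the cytosolic superoxide dismutase, fell from 76.3 ± 5.48 to 44.6 ± 6.44 CPM (-0.78, SE 0.15, edgeR adjusted p = 0.0155), and the mitochondrial peroxidase PRDX3 fell from 54.2 ± 16.9 to 27.7 ± 3.97 CPM (-0.97, SE 0.21, edgeR adjusted p = 0.0186).

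MPO, with which neutrophils turn hydrogen peroxide into hypochlorous acid, was at 0.676, 77.4, 45.6, 58.4 and 4.90 CPM in Perthes and at 586.6, 267.1 and 237.6 CPM in control rabbits. Its groups lay far apart, but the spread among Perthes rabbits was wide and it was not called (log2 fold change -3.28, SE 1.09, edgeR adjusted p = 0.0712, exact permutation p = 0.0357). CAT, catalase, likewise had groups apart without a call (201.5 ± 80.0 against 377.7 ± 82.5 CPM, -0.91, SE 0.32, edgeR adjusted p = 0.0895). SOD2, the mitochondrial dismutase, was at 137.9 ± 18.9 and 152.3 ± 16.9 CPM (-0.14, SE 0.17, edgeR adjusted p = 0.598).

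NADPH is the electron donor of all NOX enzymes. Of 10 tested genes from pathways of its supply, 1 was called, lower in Perthes, a share near the 8.86% of all genes. It was TKT, a pentose phosphate pathway enzyme that does not itself make NADPH (185.4 ± 25.8 against 351.1 ± 162.9 CPM, log2 fold change -0.92, SE 0.27, edgeR adjusted p = 0.0498). At an unadjusted edgeR p below 0.05, 2 of the 10 were higher and 2 lower, and DESeq2 called 1 higher and 2 lower. The median of the list was -0.15, and 4 of the 10 log2 fold changes were above 0.

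Of 12 transcription factors known for the phagocyte oxidase genes, 2 were called lower and 0 higher by edgeR (all genes tested: 8.86% and 6.21%, and 0 of the list higher at an unadjusted p below 0.05 and by DESeq2), and the median log2 fold change was -0.17. CEBPE, a factor of late neutrophil maturation, fell from 39.9 ± 28.7 to 3.29 ± 2.96 CPM (-3.60, SE 0.82, edgeR adjusted p = 0.0222). IRF1, an interferon-induced factor, fell from 118.9 ± 83.1 to 46.6 ± 9.29 CPM (-1.35, SE 0.37, edgeR adjusted p = 0.0396). SPI1 (PU.1), the factor of all myeloid cells, was at 24.7 and 23.5 CPM (0.07, edgeR adjusted p = 0.908). In the charge, peroxide, NADPH or transcription factor lists together, edgeR called 0 genes without control rabbit 1, where 10 lower and 4 higher genes of these lists had an unadjusted p below 0.05. It also called 0 of them without control rabbit 2, where 12 lower and 3 higher had an unadjusted p below 0.05.

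**Figure D3:**
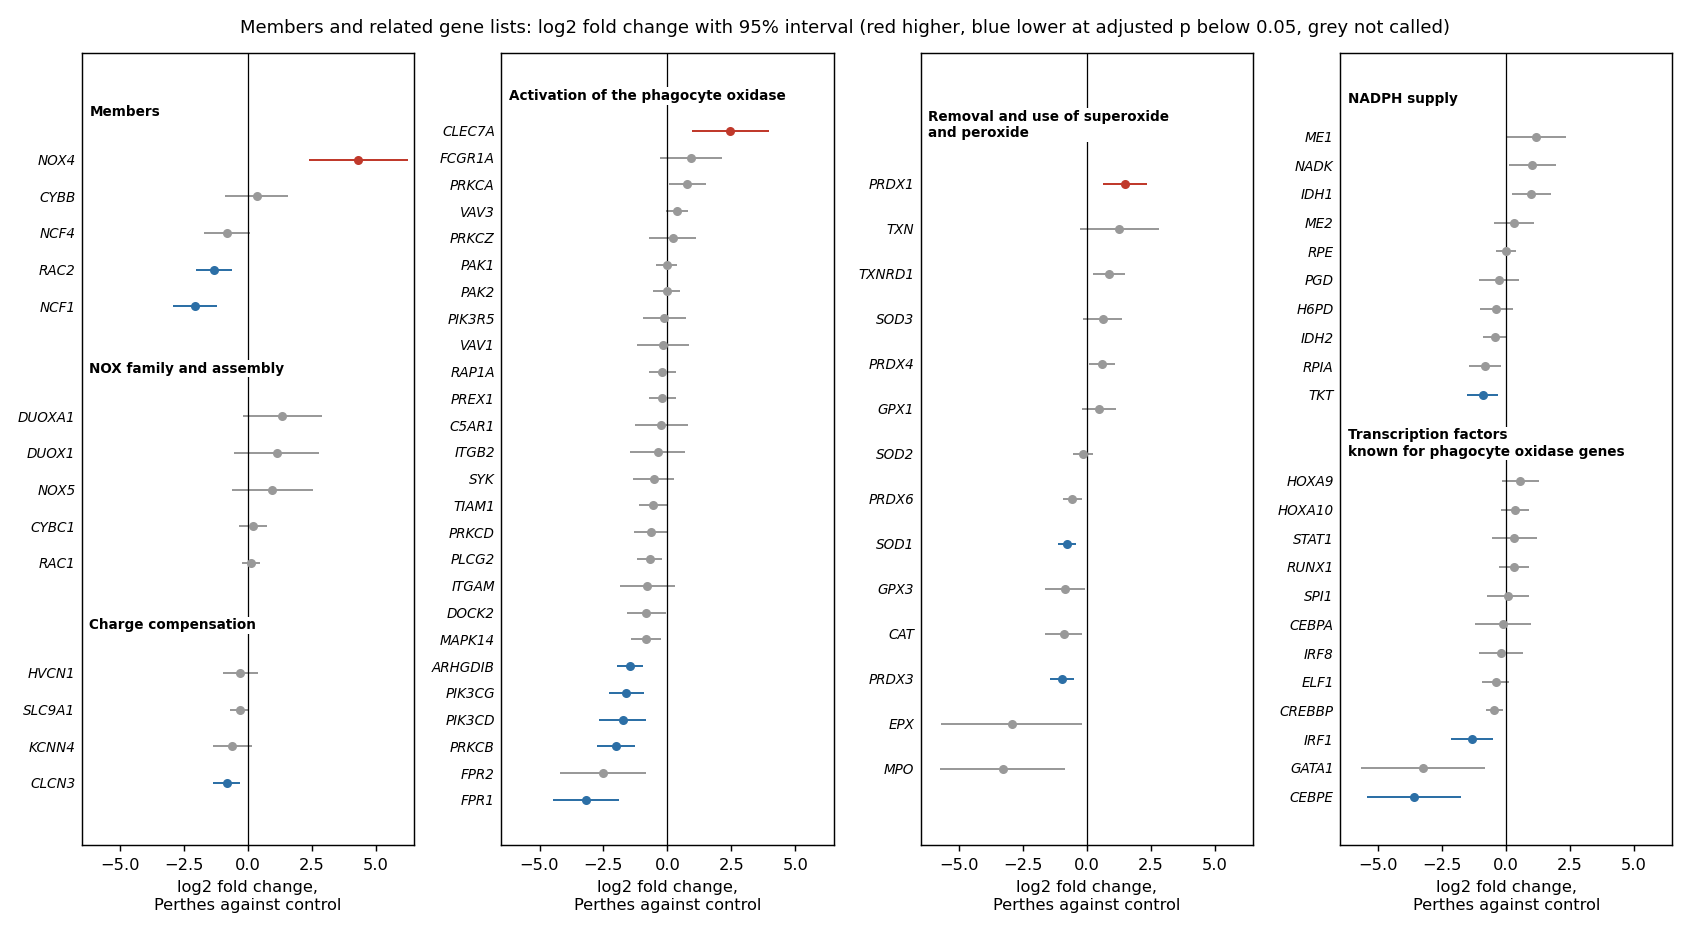
Log2 fold change of Perthes against control (horizontal axis) with its 95% interval for the 5 oxidase genes, headed Members, and for the tested genes of 6 related lists, with genes called higher in red, called lower in blue and the rest in grey. NOX4, CLEC7A and PRDX1 are the genes called higher, and the genes called lower include NCF1, RAC2, FPR1, CEBPE, PRKCB, PIK3CG and ARHGDIB.

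Markers of the cell types that carry these genes differed between the groups as well. The summed CPM of 9 neutrophil markers was 28.5, 1823, 696.7, 1763 and 194.7 in Perthes rabbits 1 to 5 and 22520, 7124 and 6830 in the controls. All 9 log2 fold changes were below 0, with a median of -3.69, and 5 of the 9 were called lower (all genes tested: 8.86%). The granule protein gene LCN2 (-3.87, edgeR adjusted p = 0.0385) and the chemokine receptor gene CXCR2 (-2.99, edgeR adjusted p = 0.037) were among them, and no marker was at 0 in all libraries. Control rabbit 1, highest in NCF1, NCF4 and RAC2, was also highest in this sum. Among Perthes rabbits, 1 and 5 had the lowest values of both this sum and NCF1, and rabbits 2 to 4 came in different orders for the sum and for NCF1. RAC2 did not follow the sum within Perthes, where rabbit 4, with a sum of 1763, had the lowest RAC2 level of 74.4 CPM.

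Of 9 monocyte and macrophage markers, 4 were called higher (CD14, CD68, CSF1R and MRC1, all genes tested: 6.21%) and 1 lower (C1QC, all genes tested: 8.86%). Their sum was 1761, 990.3, 1339, 490.3 and 1647 CPM in Perthes and 675.4, 575.2 and 516.0 CPM in control rabbits. The 5 Perthes rabbits had the same order in this sum as in CYBB, with rabbit 1 highest, then 5, 3, 2 and 4, also without CSF1R. The controls did not, running 1, 2 and 3 in the sum and 1, 3 and 2 in CYBB. Markers of osteoclasts, which share precursors with macrophages, were called higher for 3 of 8 (CTSK, DCSTAMP and SIGLEC15, all genes tested: 6.21%). Their sum was 1588 to 4534 CPM in Perthes and 753.3 to 1323 CPM in control rabbits, of which CTSK made up 53.6% to 83.2% in each library. Without CTSK the sums were 596.7 to 1077 CPM and 349.4 to 540.6 CPM and did not overlap. Without control rabbit 1 or control rabbit 2, edgeR called 0 markers of either list. At an unadjusted p below 0.05, 4 macrophage markers were then higher and 1 lower in each case, and 4 and 6 osteoclast markers were higher.

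Smooth muscle and fibroblast markers, of cells in which NOX4 is known, were called higher for 3 of 5 (all genes tested: 6.21%). ACTA2 had a log2 fold change of 3.57 (edgeR adjusted p = 0.0133), TAGLN of 3.74 (edgeR adjusted p = 0.0118) and COL3A1 of 2.34 (edgeR adjusted p = 0.0474). Their sum was 12380 to 21370 CPM in Perthes and 984.2 to 7069 CPM in control rabbits, of which COL3A1 made up 79.2% to 97.9% in each library. From highest to lowest, the Perthes rabbits ran 1, 5, 4, 3 and 2 in this sum and 1, 5, 2, 3 and 4 in NOX4, so that rabbit 4, lowest in NOX4, was not lowest in the sum. Without COL3A1 the sums overlapped, at 357.5 to 789.7 CPM in Perthes and 203.7 to 428.1 CPM in control rabbits, and MYH11 and PDGFRB were not called. Endothelial markers, of another NOX4-expressing cell type, were called for 0 of 4 by edgeR (1 at an unadjusted p below 0.05, and 1 by DESeq2), with sums of 228.1 to 322.1 and 214.8 to 291.6 CPM.

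The remaining lists cover other cell types, and which of them express these genes was not tested. Their sums are given with what they come to without the gene of the highest mean level where this changed the overlap, a comparison chosen after seeing the data. Of all genes tested, 6.21% were called higher and 8.86% lower. Eosinophil markers (0 of 3 called by edgeR, 3 at an unadjusted p below 0.05 and 1 by DESeq2, 1.32 to 287.9 against 369.1 to 958.6 CPM) and erythroid markers (1 of 4 lower, 23.3 to 889.8 against 1952 to 2289 CPM) had lower sums in every Perthes rabbit, also without PRG2 and ALAS2. T and NK cell markers (1 of 4 lower) summed to 3.85 to 9.25 against 28.3 to 66.2 CPM, but this gap was that of NKG7, and without it the sums overlapped at 1.78 to 5.21 against 3.702 to 7.29 CPM. B cell markers (1 of 5 lower) summed to 50.9 to 78.0 against 50.1 to 94.4 CPM, an overlap that came from EBF1 (log2 fold change 0.32, edgeR adjusted p = 0.418), and without it the sums were 5.201 to 24.41 against 24.98 to 41.85 CPM and did not overlap. Of the markers of the labelled tissue, edgeR called 0 of 8 osteoblast and osteocyte genes (1 at an unadjusted p below 0.05, 0 by DESeq2) and 0 of 6 cartilage genes (2 and 0). Their sums were 45470 to 145100 and 34370 to 139600 CPM in Perthes, and 73720 to 92180 and 45860 to 64980 CPM in control rabbits, so bone and cartilage RNA was present in every library, with COL1A1 at 98.1% to 99.2% and COL2A1 at 83.5% to 94.0% of these sums. Skeletal muscle markers were low throughout (0 of 2 called by edgeR, 1 at an unadjusted p below 0.05 and 0 by DESeq2, 0.551 to 2.25 against 0.494 to 10.4 CPM). Without control rabbit 1 edgeR called 0 of the 9 neutrophil markers (7 at an unadjusted p below 0.05) and 1 of the 5 smooth muscle and fibroblast markers (3). Without control rabbit 2 it called 0 of the 9 (9) and 0 of the 5 (3). The part of cell composition in the values of the oxidase genes was not tested.

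**Figure D4:**
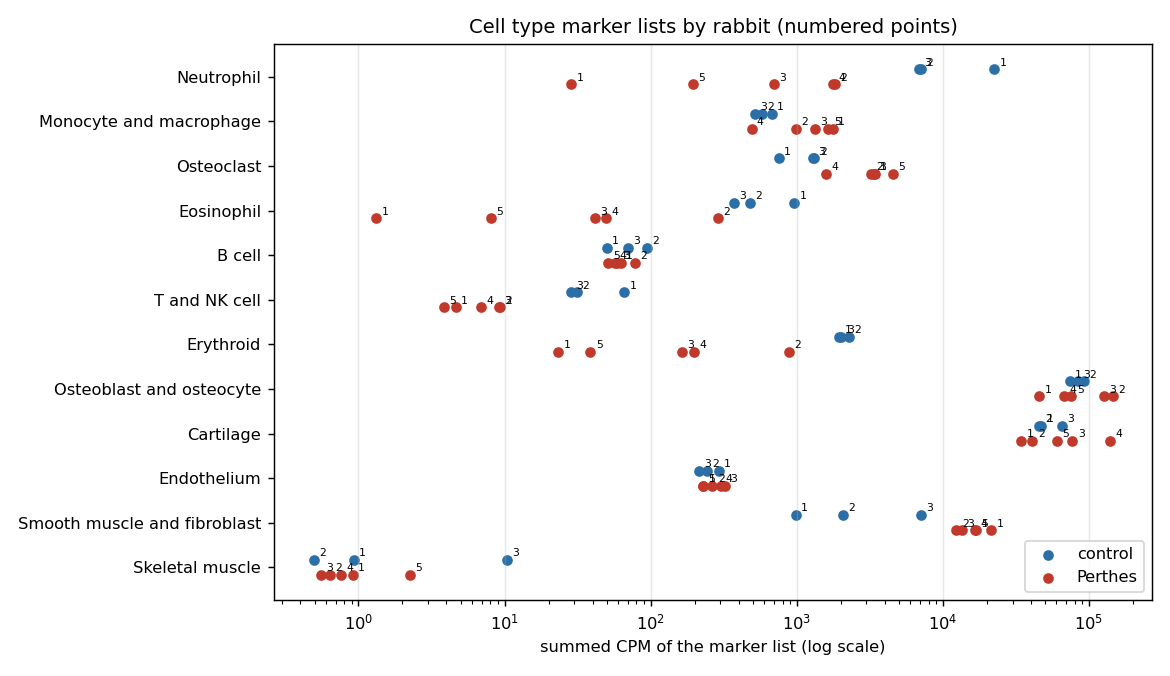
Summed CPM (horizontal axis, log scale) of 12 cell type marker lists in each control (blue) and Perthes (red) rabbit, numbered within its group. Neutrophil sums are 28.5 to 1823 in Perthes and 6830 to 22520 in control rabbits, while smooth muscle and fibroblast sums, mostly COL3A1, are 12380 to 21370 and 984.2 to 7069.

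The genes most alike to each oxidase gene were found by the Pearson correlation of log2 CPM over the 8 rabbits, after the mean of its group was taken from each rabbit, among 12946 genes. Such values describe these 8 libraries, and the genes share their depth and cell composition. CYBB was most like PIK3CB (r = 0.994), ENSA (0.988) and CSTF2 (0.987), and NCF1 most like FOXK2 (0.997), TRMU (0.995) and SRF (0.994). NCF4 was most like CD37 (0.994), RHBDF2 (0.993) and TICAM2 (0.993), and RAC2 most like ORAI1 (0.994), MAPK14 (0.991) and STAT6 (0.984). For NOX4 they were FBN1 (0.984), RDH14 (0.977) and ARHGAP12 (0.974). Of these 15 genes, 1 was called (all genes tested: 15.1%), which was FBN1, encoding the matrix protein fibrillin-1 (log2 fold change 1.37, edgeR adjusted p = 0.0299).

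Among the oxidase genes themselves, NCF4 and RAC2 varied together most closely from rabbit to rabbit (r = 0.911, n = 8). CYBB went with NCF4 (0.851) and hardly with NCF1 (0.098). NOX4 ran against NCF1 (-0.845) and RAC2 (-0.486) within the groups.

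Pathway annotation in the gene table placed CYBB, NCF1 and NCF4 in Phagosome and in Leishmaniasis, and these 3 with RAC2 in Leukocyte transendothelial migration. Of all genes tested, 6.21% were called higher and 8.86% lower. Of the 146 Phagosome genes tested, 25 were higher (17.1%) and 11 lower (7.53%), with a median log2 fold change of 0.39, whereas NCF1 was lower and CYBB and NCF4 were not called. Of the 87 migration genes tested, 7 were higher (8.05%) and 12 lower (13.8%), and the median was 0.02. The 81 Leishmaniasis genes tested had 4 higher (4.94%) and 5 lower (6.17%). The oxidase genes are counted within these pathways.

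NCF4 and RAC2 lie on the same chromosome in the RefSeq annotation of the rabbit assembly mOryCun1.1, with 9 protein-coding genes between them. Of the 4 that were tested, 1 was called (all genes tested: 15.1%), TST, a mitochondrial sulfur transferase (log2 fold change -2.43, edgeR adjusted p = 0.0339).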

How the data were processed

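Total RNA of whole femoral heads was sequenced from 5 Perthes and 3 control rabbits after removal of ribosomal RNA with a strand-preserving kit. The authors filtered the reads with SOAPnuke, aligned them with HISAT2 2.0.4 and counted per gene, where their methods and processing notes name both HTSeq 1.99.2 and RSEM 1.1.17. The deposited values are expected counts per gene, not normalized, and 10.0% to 10.7% of them per library were not whole, whereas those of the 5 oxidase genes were whole in all 8 libraries. A further 8 count columns were identical to those used and were not used. The small RNA libraries were not used here.

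Samples were grouped by their labels, and the third control, whose title and code give different numbers, was taken as control rabbit 3. Nothing names a batch, litter or sex. Rabbits are taken as separate animals from the labels, and p-values measure only the spread between these samples.

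Expected counts were rounded, genes with low counts removed (filterByExpr), and groups compared with edgeR 4.0.16 in R 4.3.3 (TMM scaling, quasi-likelihood test, Benjamini-Hochberg adjustment over 15305 genes, threshold 0.05). The SE is the size of the log2 fold change divided by the square root of F. CPM values are scaled by TMM. Ratios were log2 of counts plus 0.5, with exact two-sided permutation tests in scipy 1.17.1. Correlations used log2 CPM with a prior count of 2. The scripts were tested on simulated data in which 200 of 15305 genes changed by a known fold. Of these edgeR recovered 0% at a log2 fold change of 1, 75% at 2 and 93.5% at 3, with 1, 4 and 8 wrong calls. A gene not called can therefore still differ. More genes were called in the real data, so the share recovered there may be another. Alternatives were DESeq2 1.42.0, its size factors, library totals, no filter, at least 10 counts in every sample, a replicate block, another pseudocount (2) and leaving out each rabbit. Ratios with CYBA were not computed.

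The genes and lists were chosen with earlier results of these data known, and some genes of the lists are not reported here. Named are all oxidase genes, 6 genes fixed by symbol (CYBC1, RAC1, HVCN1, MPO, SOD2 and CAT), at most 4 called genes per list and direction by smallest adjusted p, and the 3 most correlated genes of each. Outside this rule, PIK3CD, SPI1, NOX5, DUOX1, DUOXA1 and TST were named after their values were seen. Gene symbols came from the table and, for 532 genes, from RefSeq by gene number (assembly mOryCun1.1, 16307 of 20255 matched).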

Additional observations from a re-analysis of the deposited data

Results flagged for a closer look

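In 3 of the 27 sets of 5 Perthes values that were examined, 1 rabbit lay far from the other 4 by Dixon's test, which chance gives in about 1 of 20 sets. The summed eosinophil markers of Perthes rabbit 2 were at 287.9 CPM, against 1.32 to 49.4 CPM in the other Perthes rabbits. The summed erythroid markers of the same rabbit were at 889.8 CPM, against 23.3 to 198.1 CPM. The summed skeletal muscle markers of Perthes rabbit 5 were at 2.25 CPM, against 0.551 to 0.912 CPM. No oxidase gene and no ratio stood out in this way.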

How the results depend on the processing

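CYBB and NCF4 stayed on the same side of the threshold with the same sign in every fit, and the 4 ratios kept their sign in every alternative, uncalled with another pseudocount or without rounding. Other scalings, filters and DESeq2 gave NCF1 a log2 fold change of -2.16 to -2.06, RAC2 of -1.41 to -1.33 and NOX4 of 4.27 to 4.36, all called (DESeq2 adjusted p = 2.79e-05, 0.00119 and 1.29e-07), except that NOX4 was removed by the filter of 10 counts in every sample, which left 2 genes called. The median of all genes lay between -0.06 (library totals) and 0.07 (no filter). DESeq2 called 1700 genes higher against 951 in edgeR and 1917 lower against 1356, and the cause of this gap was not tested. With 1 rabbit left out, the range was 0 to 1267 genes higher, 0 to 1628 genes lower and 0 to 3 oxidase genes called, and the log2 fold change was -2.39 to -1.42 for NCF1, -1.60 to -0.78 for RAC2, 3.76 to 4.94 for NOX4, 0.04 to 0.84 for CYBB and -1.13 to -0.17 for NCF4. Fewer rabbits entered those fits. Replicate numbers are not said to pair rabbits, and same-numbered rabbits did not deviate together (r = -0.32, 0.16 and -0.24, against a mean of 0.03 over 12 other pairs). With the replicate block, in which Perthes rabbits 4 and 5 have no partner, edgeR called 0 genes higher and 0 lower (1504 and 1648 at an unadjusted p below 0.05) and 0 oxidase genes (4), with NCF1 at -1.89 (adjusted p = 0.195), RAC2 at -1.09 (adjusted p = 0.2) and NOX4 at 4.39 (adjusted p = 0.147). Depth limits NOX4 most, with 0, 9 and 7 control counts.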
